A study of Rattus norvegicus with 4 samples.

Results

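Voltage-gated calcium channels let Ca2+ into a cell when its membrane is depolarised, and the pore through which it passes is formed by a single large protein, the alpha-1 subunit. The genes of this subunit fall into 3 families. L-type channels (Cacna1c, Cacna1d, Cacna1f and the skeletal muscle gene Cacna1s) serve contraction, hormone secretion and gene regulation. P/Q-, N- and R-type channels (Cacna1a, Cacna1b and Cacna1e) trigger transmitter release at nerve endings. T-type channels (Cacna1g, Cacna1h and Cacna1i) open near the resting potential. In chromaffin cells of the adrenal medulla, from whose tumour the PC12 line derives, Ca2+ entry through such channels sets off the exocytosis of catecholamine granules.

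The genes described here are these 10 pore subunit genes, taken by symbol from the 25810 genes of the count files. Of the 10 genes, 9 were found. Cacna1s was not found by its symbol, and its reads were not analysed here. RNA had been sequenced from 2 clones of the rat pheochromocytoma line PC12, with 2 libraries per clone and no treatment in the labels. The clone wtPC12 is labelled as wild type with low REST, and hrPC12, earlier called PC12-27, as high REST. REST is a repressor that binds a DNA element called RE1 and keeps neuronal genes silent in nonneural cells. The high level of REST in hrPC12 arose spontaneously and not by transfection, so any other difference between these 2 single clones and the REST level cannot be told apart. Nothing in the labels says that the libraries of a clone came from separate cultures, and p values then measure the spread between these libraries, which may be technical.

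The libraries held 20975027 to 27246502 reads on genes. Levels are given as reads normalized to a common library size with edgeR's TMM factors, and 3 reads correspond to 2.54 to 3.49 normalized counts. Rest itself had 43.0 and 132 normalized counts in the wtPC12 libraries and 964 and 915 in the hrPC12 libraries, so that its log2 FC (hrPC12/wtPC12) was 3.42 with an SE of 0.57 (edgeR, adjusted p = 0.0115). It ranged from 2.80 without wtPC12 replicate 1 to 4.44 without wtPC12 replicate 2, and the adjusted p was 0.00207 with RLE factors and 1.94e-10 with DESeq2. With edgeR the adjusted p was 0.0109 with filterByExpr, and 0.103 with glmTreat, which tests against a log2 FC of 2. The chromaffin markers, of which 8 of 9 were found, summed to 816367 to 954988 normalized counts in wtPC12 and 47056 to 51060.4 in hrPC12. The markers of skeletal muscle (7 of 8 found) summed to 295 to 539 and 4321 to 4823, and those of fibroblasts and mesenchyme (all 7 found) to 113 to 139.6 and 86890.1 to 91493. A single gene held most of each of these sums where it was high. These were Chgb (687936 and 626776 in wtPC12), Myod1 (3258 and 3576 in hrPC12) and Col3a1 (83801 and 88143 in hrPC12). Some markers did not follow their sum. Ddc was higher in hrPC12 (24196 and 20841 against 26281 and 27995). Des was lower there (72.1 and 37.1 against 17.8 and 9.11), and for Tnnt2 the clones overlapped. White blood cell markers (6 of 6) summed to 7.21 to 17.4 in wtPC12 and 10.1 to 10.2 in hrPC12, and Schwann cell markers (4 of 4) to 155 in each wtPC12 library and 236 to 257 in hrPC12. Sox10, a Schwann cell marker, had no read in any library. The sums of the chromaffin, skeletal muscle, fibroblast and Schwann cell markers did not overlap between the clones, those of the white blood cell markers did, and the part of any of them in the differences given here was not tested.

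For some of the channel genes the libraries of a clone were not alike. Among 11683 tested genes with at least 10 reads in each library, the log2 ratio of wtPC12 replicate 2 to replicate 1 had a median of −0.04, and the central 90% of genes lay between −0.68 and 1.26. Cacna1a (0.87) and Cacna1c (0.96) were near the upper end of this range, and Cacna1b, with fewer reads in hrPC12, had a ratio of 1.25. For hrPC12, replicate 2 was set against replicate 1 on the log2 scale over the same genes. The median was 0.01, and the central 90% lay between −0.93 and 0.30. A second peak of genes was lower in replicate 2, with 767 genes between −0.9 and −0.8 against 137 between −0.5 and −0.4. Cacna1a, at −0.91, lay inside the central range. In hrPC12, stretches of neighbouring genes stood higher in replicate 1 than in replicate 2, and their share over all genes was not counted. Over 7 genes in order, Cacna1a itself included, the median log2 ratio of replicate 1 to replicate 2 was 0.89. It was 0.79 for such a stretch around Cacna1g and between −0.11 and 0.20 for those of the other 5 tested pore subunit genes. Cacna1a and Cacna1g are therefore also given without hrPC12 replicate 1.

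The promoters of the 3 genes that passed the test of the clones, and that of Cacna1a, which did not, are shown because REST acts through DNA elements that can lie near a gene's start. They are the 250 bases before the annotated start, read in the direction of transcription, from RefSeq's assembly GRCr8, which is a later build than the one used for counting. Of the 10 genes, 7 had an entry in the promoter table. Capitals mark CpG dinucleotides, which are frequent in the promoters of Cacna1a, Cacna1b and Cacna1d and rare in that of Cacna1c.

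Cacna1b, chr3:27944286-27944535, minus strand: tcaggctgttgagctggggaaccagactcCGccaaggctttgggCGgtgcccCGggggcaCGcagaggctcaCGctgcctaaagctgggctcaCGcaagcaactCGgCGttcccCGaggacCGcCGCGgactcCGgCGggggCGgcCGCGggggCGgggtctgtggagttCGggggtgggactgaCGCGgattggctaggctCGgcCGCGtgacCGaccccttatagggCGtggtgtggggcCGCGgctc

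Cacna1c, chr4:154051749-154051998, minus strand: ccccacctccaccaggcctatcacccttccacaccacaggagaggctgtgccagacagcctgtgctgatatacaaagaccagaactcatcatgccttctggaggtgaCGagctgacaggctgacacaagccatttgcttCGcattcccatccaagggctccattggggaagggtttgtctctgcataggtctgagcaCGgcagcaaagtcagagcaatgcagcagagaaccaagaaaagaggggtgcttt

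Cacna1d, chr16:5527550-5527799, minus strand: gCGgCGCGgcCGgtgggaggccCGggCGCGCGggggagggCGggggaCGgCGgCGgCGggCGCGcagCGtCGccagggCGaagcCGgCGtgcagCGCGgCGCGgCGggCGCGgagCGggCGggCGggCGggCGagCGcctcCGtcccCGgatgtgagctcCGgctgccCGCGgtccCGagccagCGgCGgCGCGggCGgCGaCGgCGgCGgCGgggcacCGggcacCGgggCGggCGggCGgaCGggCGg

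Cacna1a, chr19:40650469-40650718, minus strand: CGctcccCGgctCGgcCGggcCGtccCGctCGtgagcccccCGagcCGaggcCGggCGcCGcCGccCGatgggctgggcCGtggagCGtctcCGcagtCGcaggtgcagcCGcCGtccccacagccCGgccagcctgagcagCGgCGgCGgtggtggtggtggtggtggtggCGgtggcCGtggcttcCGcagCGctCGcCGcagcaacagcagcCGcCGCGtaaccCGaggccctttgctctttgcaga

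The windows held 28 CpG in Cacna1b, 3 in Cacna1c, 56 in Cacna1d and 34 in Cacna1a. The GC content was 72% in Cacna1b, 54.4% in Cacna1c, 88.8% in Cacna1d and 76.8% in Cacna1a, where the median of 33469 rat promoters was 51.2%. GC-rich windows thus occurred both in genes that differed between the clones and in Cacna1a. Neither the left part of the RE1 element (CAGCACC) nor its right part (GGACAG) was found on either strand in the windows of the 7 genes, which include Cacna1s. Over all promoters of the same length, 5.43% held the left part and 18.2% the right part. A search of these letters in this window says nothing about REST sites elsewhere in the genes.

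The comparison asked which of the pore subunit genes differ between the low-REST clone wtPC12 and the high-REST clone hrPC12. In hrPC12 the N-type gene and both L-type genes with enough reads were lower, while for the P/Q-type gene the clones overlapped. In such bulk RNA, fewer cells that express a gene and less RNA of it per cell cannot be told apart. Of the 10 genes, 7 could be tested, that is, both clones had reads of them and their mean over the libraries reached 5 normalized counts. Past both thresholds of the study (a log2 FC below −2 or above 2, with an adjusted p under 0.01), 3 were lower in hrPC12, Cacna1b, Cacna1c and Cacna1d, as were 5.46% of the 13726 genes tested. None was higher past both thresholds by edgeR's quasi-likelihood test or by DESeq2, where 4.84% of all tested genes were higher by edgeR and 6.53% of the 13459 with an adjusted p by DESeq2. At an unadjusted p under 0.05 and the same log2 FC, 4 were lower and 2 higher, where 7.66% of all tested genes were lower and 8.5% higher. Their median log2 FC was −4.28, where that of all tested genes was 0.06. In 6 of the 7 genes the clones did not overlap, as in 73.5% of all tested genes. The summed reads of the 9 genes, not corrected for transcript length, were 2749 and 6022 normalized counts in wtPC12 and 722 and 415 in hrPC12, a difference of 7.71-fold between the means. Without Cacna1b the sums were 1012 and 1892 in wtPC12 and 713 and 407 in hrPC12, a difference of 2.59-fold. In both sums the clones did not overlap, and the exact 2-sided permutation test gave p = 0.333, the smallest that 2 libraries against 2 allow.

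**Figure D1:**
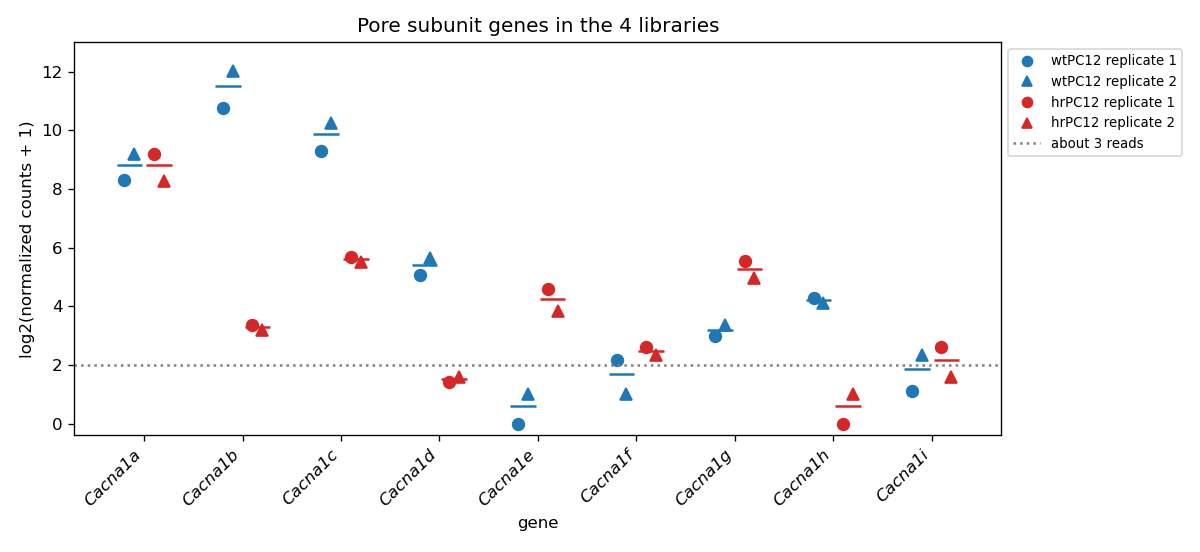
Normalized counts of the 9 pore subunit genes in each library, as log2 of the value plus 1, with wtPC12 in blue, hrPC12 in red, and a bar at the log2 of each clone's mean plus 1. For Cacna1b, Cacna1c, Cacna1d and Cacna1h both hrPC12 libraries lie below both wtPC12 libraries, for Cacna1e, Cacna1g and Cacna1f above, and for Cacna1a and Cacna1i the clones overlap. The dotted line marks the level of about 3 reads.

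Cacna1b, the pore of N-type channels, which feed Ca2+ to the release sites of neurons and chromaffin cells, showed the largest difference of the 7 tested genes. It had 1737 and 4129.7 normalized counts in the wtPC12 libraries and 9.31 and 8.09 in the hrPC12 libraries. The wtPC12 libraries differed 2.38-fold from each other, a spread far smaller than the gap to hrPC12. The log2 FC was −8.37 with an SE of 0.63 (95% interval −9.97 to −6.77, adjusted p = 0.00115, edgeR), a level 331-fold lower in hrPC12. The hrPC12 libraries held 11 and 8 reads of this gene, so some reads were left in both. Without wtPC12 replicate 2 its log2 FC was −7.61 with an adjusted p of 0.013 (edgeR).

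Cacna1c, the L-type pore of heart, smooth muscle and many neurons, had 632 and 1232 normalized counts in wtPC12 and 50.8 and 44.5 in hrPC12. The clones did not overlap and the hrPC12 libraries lay close together. Its mean fell from 932 ± 425 (SD, n = 2) to 47.7 ± 4.44 (SD, n = 2), with a log2 FC of −4.28 with an SE of 0.44 (95% interval −5.40 to −3.17, adjusted p = 0.00272, edgeR). The gene was 19.5-fold lower in hrPC12 but had 60 and 44 reads there, well above the level of 3 reads. Without wtPC12 replicate 2 the log2 FC was −3.72 and the adjusted p 0.0157 (edgeR).

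Cacna1d codes for the other L-type pore of neuroendocrine cells, which opens at less depolarised potentials than that of Cacna1c. It had 32.6 and 49.4 normalized counts in wtPC12 and 1.69 and 2.02 in hrPC12, or 2 reads in each hrPC12 library. Both hrPC12 libraries were thus under the level of 3 reads, and both wtPC12 libraries far above it. The fitted log2 FC was −4.39 with an SE of 0.60 (adjusted p = 0.00622, edgeR). The ratio of the summed counts was 22.5-fold, with an exact 95% counting interval of 8.44 to 84.8-fold that covers counting error only. Leaving out either wtPC12 library ended the call, with an adjusted p (edgeR) of 0.0108 without replicate 1 and of 0.0312 without replicate 2.

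Cacna1f, the L-type pore of photoreceptor synapses in the retina, had 3 and 1 reads in wtPC12 and 6 and 4 in hrPC12. These counts are near the limit of 3 reads in both clones and did not reach the minimum for the test. Its ratio of summed counts, hrPC12 over wtPC12, was 2.11 with an exact 95% interval of 0.608 to 9.21, so no difference was detectable at this depth.

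Cacna1a, the pore of P/Q-type channels, the main trigger of release at many central synapses, was the tested gene whose clones overlapped. Its values were 318 and 579 normalized counts in wtPC12 and 582 and 309.6 in hrPC12. The means were 448 ± 185 (SD, n = 2) and 446 ± 192 (SD, n = 2), and the difference within each clone was larger than that between the clones. The log2 FC was −0.01 with an SE of 0.45 (adjusted p = 0.989, edgeR). Its 95% interval, −1.16 to 1.14, holds changes in both directions, so an equal level is not shown. Without hrPC12 replicate 1, which was higher over the stretch of genes that holds Cacna1a, the log2 FC was −0.53, and without hrPC12 replicate 2 it was 0.32.

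Cacna1e, the R-type pore, had no read in wtPC12 replicate 1, 1 read in wtPC12 replicate 2, and 27 and 13 reads in hrPC12. As normalized counts these are 0, 1.03, 22.9 and 13.2, and both hrPC12 libraries lay above both wtPC12 libraries. The log2 FC was 4.77 with an SE of 1.02 (adjusted p = 0.0201, edgeR), large enough in size but above the limit of 0.01 for the adjusted p. The ratio of the summed counts was 33.7, with an exact 95% counting interval of 5.72 to 1366, since it rests on a single wtPC12 read. The adjusted p of edgeR stayed above that limit with filterByExpr (0.0151), the legacy option off (0.0127) and glmTreat (0.124), as did that of DESeq2 (0.0365). With edgeR it came under the limit when RLE factors (0.00902) or plain library totals (0.00976) set the scale, and when no gene was filtered out (0.0097). It was also under the limit without hrPC12 replicate 1 (0.00805) or hrPC12 replicate 2 (0.00794), and not without a wtPC12 library. The fitted log2 FC ranged from 3.95 without wtPC12 replicate 1 to 7.20 without wtPC12 replicate 2, and was 2.99 with a prior count of 2.

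The T-type genes went in different directions. Cacna1g had 6.98 and 9.27 normalized counts in wtPC12 and 45.7 and 30.4 in hrPC12, with hrPC12 above wtPC12 in both libraries. Its log2 FC was 2.21 with an SE of 0.50 (adjusted p = 0.0273, edgeR), and 1.88 without hrPC12 replicate 1, which is within the log2 FC threshold. Neither value passed both thresholds.

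Cacna1h, a T-type pore found in chromaffin cells under some conditions and in sensory neurons, had 16 reads in each wtPC12 library and 0 and 1 read in hrPC12. As normalized counts these were 18.6 and 16.5 in wtPC12 and 0 and 1.01 in hrPC12. Its log2 FC was −4.90 with an SE of 0.97 (adjusted p = 0.0163, edgeR), again large enough in size but above the limit for the adjusted p. With edgeR the adjusted p came under the limit with RLE factors (0.00673), plain library totals (0.00884), every gene tested (0.0079) and the legacy option off (0.00974). It stayed above the limit with filterByExpr (0.0112) and glmTreat (0.0906) of edgeR and with DESeq2 (0.0256). The fitted log2 FC was −3.95 without hrPC12 replicate 1 and −7.16 (adjusted p = 0.0091, edgeR) without hrPC12 replicate 2, the library with the single read, and −2.98 with a prior count of 2. The ratio of the summed counts was 37.9-fold, with an exact 95% counting interval of 6.34 to 1544-fold, because a single hrPC12 read enters it. The third T-type gene, Cacna1i, had 1 and 4 reads in wtPC12 and 6 and 2 in hrPC12. It was below the minimum for the test, and its ratio of summed counts, hrPC12 over wtPC12, of 1.35 (exact 95% interval 0.389 to 5.24) shows no detectable difference at this depth.

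**Figure D2:**
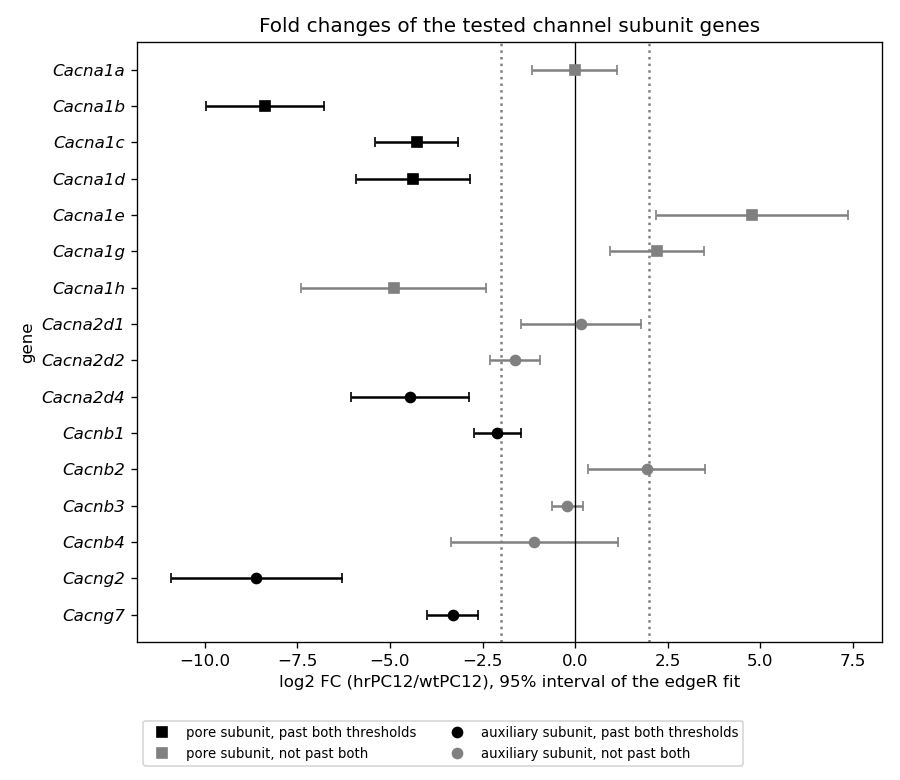
Fitted log2 FC (hrPC12/wtPC12) of the 7 tested pore subunit genes (squares) and 9 tested auxiliary subunit genes (circles), with the 95% interval of the edgeR fit. Black symbols passed both thresholds, grey ones did not, and dotted lines mark a log2 FC of −2 and 2. The 7 genes in black all lie below −2, from Cacnb1 at −2.10 to Cacng2 at −8.61.

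The lower level of Cacna1b, Cacna1c and Cacna1d in hrPC12 kept its sign with each library left out in turn, while the test did not always hold. The fits without 1 library assume that the lone library of a clone varies like the pair of the other clone. Without wtPC12 replicate 2, edgeR called no gene among all 13726, with a smallest adjusted p of 0.013, and 984 were lower and 1353 higher at an unadjusted p under 0.05 with the same limits on the log2 FC. Without wtPC12 replicate 1, Cacna1b (adjusted p = 0.000961, edgeR) and Cacna1c (adjusted p = 0.00127, edgeR) remained past both thresholds. None of the calls given here thus held without wtPC12 replicate 2.

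**Figure D3:**
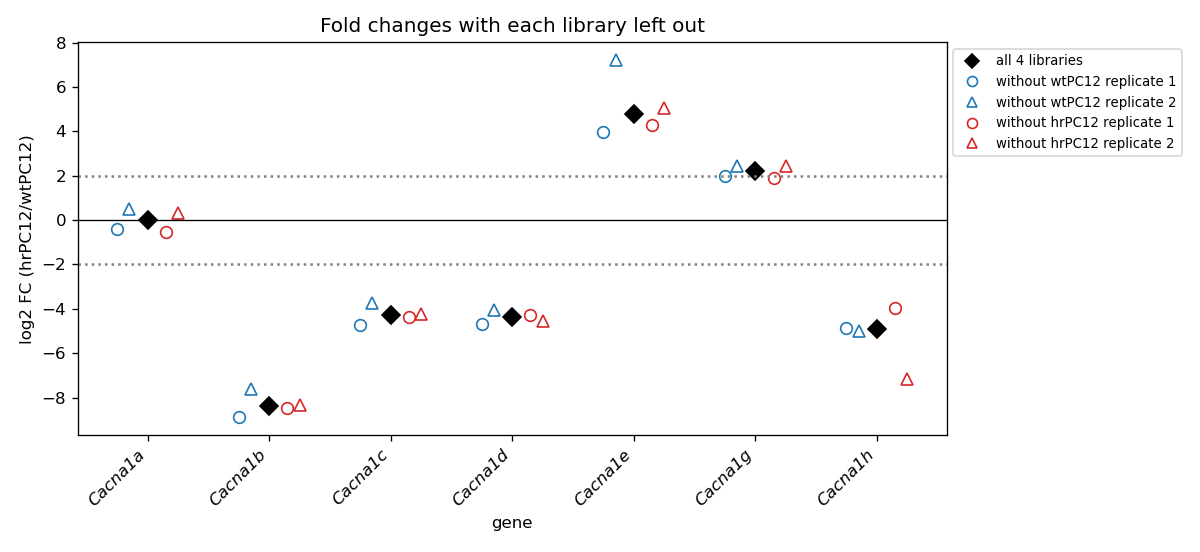
Log2 FC (hrPC12/wtPC12) of the 7 tested pore subunit genes with all 4 libraries (black diamonds) and with each library left out (open symbols, blue without a wtPC12 and red without an hrPC12 library). Cacna1b ranges from −8.90 to −7.61 and Cacna1c from −4.72 to −3.72, while Cacna1a ranges from −0.53 to 0.49 across the line at 0.

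For the 2 pore subunit genes with the most reads, the tested genes with the most similar pattern over the 4 libraries were sought, as the smallest distance between log2 values centred on each gene's mean. Those nearest to Cacna1b were Alk, Xkr7 and Unc79, at distances of 0.335, 0.48 and 0.487. Nearest to Cacna1c were Spock2 (0.276), Fbn1 (0.288) and Fmnl2 (0.30). With 4 libraries in 2 clones the distance reflects the size of the clone difference and the gap between the libraries of a clone, and it is given as a description.

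A pore subunit of the L, P/Q, N or R type works in a complex with a beta subunit on its inner side, which brings it to the membrane, and an alpha-2-delta subunit on its outer side. Gamma subunits include a skeletal muscle member, Cacng1, and members such as Cacng2 that accompany AMPA receptors instead of calcium channels. Of 16 auxiliary genes, 15 were found in the count files and 9 could be tested. Past both thresholds 4 were lower in hrPC12, Cacna2d4, Cacnb1, Cacng2 and Cacng7, as were 5.46% of all tested genes. Of the 9, none was higher past both thresholds by edgeR or DESeq2, or at an unadjusted p under 0.05 with a log2 FC above 2. The shares over all tested genes were 4.84% by edgeR, 6.53% by DESeq2 and 8.5% at the unadjusted p. With 9 genes, a count of 0 at such shares shows nothing particular to them. Cacng1, which the minimum had left out because wtPC12 held no read of it, was higher past both thresholds when every gene was tested. Their median log2 FC was −1.63. Cacng5 was not found by its symbol, and Cacng3 and Cacng4 had no read in any library.

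**Figure D4:**
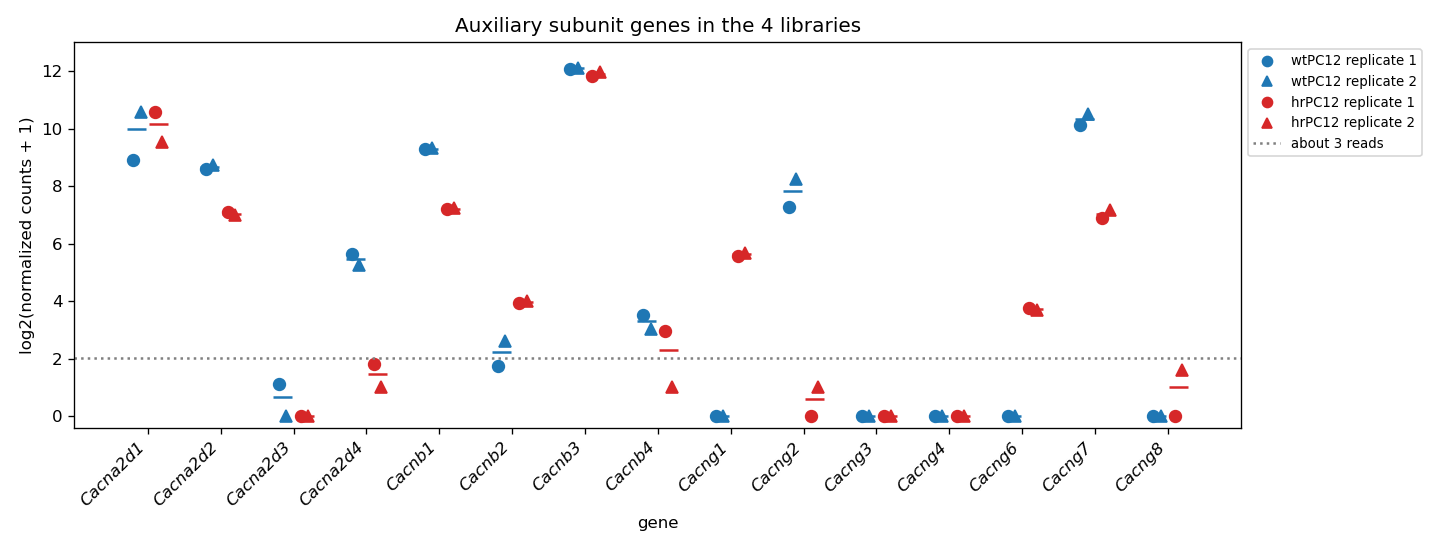
Normalized counts of the 15 auxiliary subunit genes in each library, as log2 of the value plus 1, with wtPC12 in blue, hrPC12 in red, and a bar at the log2 of each clone's mean plus 1. Cacnb3 lies near 12 in every library, Cacng2 and Cacna2d4 fall to the level of about 3 reads (dotted line) or under it in hrPC12, and Cacng1 and Cacng6 have reads in hrPC12 and none in wtPC12.

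Of the beta subunits, Cacnb3 had 4356 and 4419 normalized counts in wtPC12 and 3611 and 3972 in hrPC12. Its log2 FC was −0.21 with an SE of 0.16 (95% interval −0.62 to 0.20, adjusted p = 0.344, edgeR), an interval that does not reach the values of Cacna1b, Cacna1c and Cacna1d. Cacnb1, which also serves the skeletal muscle channel, had 633 and 635 normalized counts in wtPC12 and 146 and 149 in hrPC12. It fell by 2.10 on the log2 scale with an SE of 0.25 (adjusted p = 0.00405, edgeR), close to the threshold of 2. Cacnb2, the beta subunit of the heart, had 2.33 and 5.15 normalized counts in wtPC12 and 14.4 and 15.2 in hrPC12 (adjusted p = 0.0639, edgeR). Cacnb4 had 1 to 9 reads in each library and an adjusted p of 0.361 (edgeR). The 4 beta genes thus had a log2 FC between −2.10 and 1.93.

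Of the alpha-2-delta genes, Cacna2d1 had 475 and 1544 normalized counts in wtPC12 and 1527 and 743 in hrPC12, with overlap between the clones (log2 FC 0.17, 95% interval −1.45 to 1.79, adjusted p = 0.85, edgeR). Like Cacna1a it was higher in wtPC12 replicate 2 and in hrPC12 replicate 1. The stretch of 7 genes that holds Cacna2d1 was also higher in hrPC12 replicate 1, with a median log2 ratio of 1.02. Cacna2d2 had 389 and 429 normalized counts in wtPC12 and 135 and 127 in hrPC12, a log2 FC of −1.63 (adjusted p = 0.0108, edgeR) that passed neither threshold. Cacna2d4 had 42 and 36 reads in wtPC12 and 3 and 1 in hrPC12 (log2 FC −4.46, adjusted p = 0.00671, edgeR), with a ratio of summed counts of 23.1 and an exact 95% counting interval of 8.67 to 86.9. Without wtPC12 replicate 1 its adjusted p (edgeR) was 0.0204, and 0.0318 without the other wtPC12 library. Cacna2d3 had a single read, in wtPC12 replicate 1.

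Of the gamma genes, Cacng2 had 155 and 305 normalized counts in wtPC12 and 0 and 1.01 in hrPC12, with a log2 FC of −8.61 with an SE of 0.91 (adjusted p = 0.00264, edgeR). As a single hrPC12 read enters it, its ratio of summed counts, 508-fold, had an exact 95% counting interval from 90.8 to 20130.1-fold. Cacng7 had 1121 and 1444 in wtPC12 and 119 and 142 in hrPC12, a log2 FC of −3.30 with an SE of 0.27 (adjusted p = 0.00142, edgeR). The skeletal muscle gene Cacng1 went the other way, with no read in either wtPC12 library and 55 and 50 reads in hrPC12. It was at least 14.8-fold higher in hrPC12 against a floor of 3 reads per library. Cacng6, its closest relative, had no wtPC12 read and 15 and 12 hrPC12 reads, at least 3.78-fold higher against the same floor. Neither met the minimum of reads in both clones. With every gene tested, the adjusted p of edgeR was 0.000722 for Cacng1 and 0.0118 for Cacng6. Cacng8 had 2 reads in hrPC12 replicate 2 and none elsewhere.

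Proteins that regulate the channels were read from a list of 11 genes, of which 8 were tested. Past both thresholds 4 were lower in hrPC12 and 1 was higher, where 5.46% and 4.84% of all tested genes were. Cabp1, a Ca2+-binding protein that modulates the inactivation of L-type and P/Q-type channels, had 3553 and 3161 normalized counts in wtPC12 and 744 and 768 in hrPC12 (log2 FC −2.15, adjusted p = 0.00147, edgeR). Rimbp2, which tethers calcium channels to the release site, had 392 and 700.5 in wtPC12 and 51.6 and 25.3 in hrPC12 (log2 FC −3.82, adjusted p = 0.00665, edgeR). Stac2, an adaptor of L-type channels, had 2569.6 and 2070.5 in wtPC12 and 494 and 607 in hrPC12 (log2 FC −2.08, adjusted p = 0.00353, edgeR), and −1.94 without wtPC12 replicate 1 or −1.93 without hrPC12 replicate 1.

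The small GTPases of the RGK group, which bind beta subunits and reduce channel currents, did not move as 1 group. Rem2, known from neurons and endocrine cells, had 413 and 352 normalized counts in wtPC12 and 69.4 and 52.6 in hrPC12 (log2 FC −2.64, adjusted p = 0.00438, edgeR). Rrad, known from muscle, had 10.5 and 20.6 in wtPC12 and 161 and 209 in hrPC12 (log2 FC 3.55, adjusted p = 0.0058, edgeR), with an adjusted p of 0.0129 without wtPC12 replicate 1. Of the other members, Gem was not past the thresholds, with a log2 FC of 0.41 (adjusted p = 0.326, edgeR). Rem1 was below the minimum for the test, with 1 and 2 reads in wtPC12 and none in hrPC12. Rem2 and Rrad thus differed between the clones in opposite directions, each without overlap.

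Ca2+ stores and extrusion were covered by a list of 21 genes, of which 15 were found and tested. Ryr1, Ryr2, Ryr3, Itpr2, Atp2a1 and Slc8a2 were not found by symbol, so nothing is shown about them. Past both thresholds 2 were lower in hrPC12, and none was higher by edgeR, where 5.46% and 4.84% of all tested genes were. DESeq2 gave 4 lower and 2 higher, where its shares over all genes were 6.75% and 6.53%. At an unadjusted p under 0.05 with edgeR and a log2 FC above 2, 3 were higher, as were 8.5% of all tested genes. The 15 genes had a median log2 FC of −0.61. Atp2b2, a plasma membrane Ca2+ pump of neurons and hair cells, had 350.1 and 622 normalized counts in wtPC12 and 0.847 and 2.02 in hrPC12 (log2 FC −8.33 with an SE of 0.63, adjusted p = 0.00115, edgeR). Its hrPC12 libraries held 1 and 2 reads, so the ratio of summed counts was 358-fold with an exact 95% counting interval of 122 to 1737-fold. Its relative Atp2b3 had 158 and 392 in wtPC12 and 10.2 and 2.02 in hrPC12 (log2 FC −5.42, adjusted p = 0.00957, edgeR). The stretch of 7 genes that holds Atp2b3 was higher in hrPC12 replicate 1 than in replicate 2, with a median log2 ratio of 0.87. For Atp2b3 itself both hrPC12 libraries were below both wtPC12 libraries. Without hrPC12 replicate 1 its log2 FC was −7.00, and without wtPC12 replicate 2 it was −4.62 with an adjusted p of 0.049 (edgeR).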

How the data were processed

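RNA of the clones wtPC12 and hrPC12 was sequenced by the authors in 2 libraries each. The submitters' processing notes name TopHat2 2.0.4, HTSeq 0.5.3, DESeq 1.9.12 and the rat build rn4. The authors deposited raw counts of reads per gene, without normalization. The strand setting and the annotation used for counting are not given in the sources used here. Rows that name no gene held 58.7% to 62.1% of all reads in a library and were left out. The authors' table of their DESeq comparison (means per clone, fold changes, p values) was not used.

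Counts were normalized with TMM factors and scaled to the mean library size. The test was the quasi-likelihood test of edgeR 4.0.16 (glmQLFTest after glmQLFit, legacy option, common dispersion 0.0745) on the 13726 genes that both clones had reads of and whose mean reached 5 normalized counts. All their p values were adjusted together by Benjamini and Hochberg's method. R 4.3.3, limma 3.58.1 and DESeq2 1.42.0 were also used. The thresholds and the filter follow the methods of the study, whose test was DESeq. Standard errors were worked out from that test, as the size of the log2 FC fitted without a prior count over the square root of the F statistic. The 95% intervals add these errors, times a t quantile, to either side of the printed log2 FC. Ratios of summed counts carry exact binomial 95% intervals, which cover counting error only, as do floors of 3 reads, since reads carry no molecular identifiers. The script of the test was tested on simulated counts.

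The alternatives were RLE factors, plain library totals, no filter beyond 1 read in any library, filterByExpr, the legacy option off, DESeq2, glmTreat, an adjusted p under 0.05, a prior count of 2 for fold changes, and each library left out in turn. The named genes are the 10 pore subunit genes, Rest, the 16 auxiliary genes, those of the regulator, store and extrusion lists past both thresholds, and the 3 genes closest in pattern to each of the 2 pore subunit genes with the most reads. The members and lists were chosen with earlier results of these data known. Promoter sequences are from RefSeq, assembly GRCr8. Levels of different genes were not compared, since no transcript length was used here. Of the tested genes 65.2% could be placed along GRCr8 by symbol, for the order of neighbouring genes only.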

Additional observations from a re-analysis of the deposited data

How the results depend on the processing

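No paired analysis was possible because the labels of the clones share fewer than 2 replicate numbers, and the numbers used here, given in order, name a library and pair none. Pore subunit genes past both thresholds numbered 3 lower and 0 higher in hrPC12. With Cacna1h added, 4 were lower with RLE factors, library totals alone, every gene tested, the legacy option off and an adjusted p under 0.05. With glmTreat, a test against the limit of 2 itself, 1 was lower, Cacna1b. Higher were 1 with RLE factors, with library totals alone and with every gene tested, and 2 with an adjusted p under 0.05. Of the auxiliary genes 1 was lower with glmTreat, Cacng2, and 1 was higher with every gene tested, Cacng1, and 1 with filterByExpr. Of the store and extrusion genes 4 were lower with RLE factors, library totals alone, every gene tested, DESeq2 and an adjusted p under 0.05, 3 with the legacy option off, and 1 with glmTreat, Atp2b2. Higher were 2 with the first 4 of these settings and 3 with an adjusted p under 0.05. Calls over the whole gene set, given as lower and then higher, were 749 and 665, and 353 and 321 with glmTreat. RLE factors gave 900 and 869, library totals alone 834 and 901, filterByExpr 844 and 875, and the legacy option off 781 and 720. DESeq2 gave 909 and 879, every gene tested 977 and 1127, and an adjusted p under 0.05 gave 1003 and 1088. Where the counts of the lists rose in these settings, those of the whole gene set thus rose as well. With each library left out the counts ranged from 0 to 4 pore subunit genes lower and from 0 to 1 higher, from 0 to 4 auxiliary genes lower, from 0 to 4 store and extrusion genes lower and 0 to 3 higher, and from 0 to 920 of all genes lower and 0 to 957 higher. Each 0 among the lower genes is the edgeR fit without wtPC12 replicate 2, in which 4 genes of each of the 3 lists had an unadjusted p under 0.05 and a log2 FC below −2. The cause of these changes was not tested, except that glmTreat and the adjusted p of 0.05 change the call by construction.

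The log2 FC of Cacna1a turned from −0.01 to 0.03 with library totals alone and lay between −0.53 and 0.49 with a library left out, and that of Cacna2d1 between −0.48 and 1.26. Of the named genes that met the minimum for the test, leaving aside those closest in pattern, which were not refitted, no other changed sign in any setting that gave it a value. A prior count of 2 changed no call and brought fitted values of genes with few reads nearer to 0, from −4.39 to −3.48 for Cacna1d, from −4.46 to −3.56 for Cacna2d4, from −8.61 to −6.55 for Cacng2 and from −8.33 to −7.17 for Atp2b2. The summed pore subunit counts, with a log2 ratio of −2.95, ranged from −2.99 to −2.91 over the scalings and from −3.44 to −2.27 with a library left out. The planned shares per kilobase of coding sequence were not run. The depth limits the values of Cacna1d, Cacna1e, Cacna1f, Cacna1h and Cacna1i, which had at most 6 reads in each library of at least 1 clone.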
